A study of Mus musculus with 36 samples.

Results

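The genes described here act in mitosis and cytokinesis, the steps in which a cell separates its copied chromosomes and then divides. A list of 36 such genes was fixed by name and function, and every probe set that the platform annotation assigns to 1 of these symbols, and to no other, was taken. Of the 36 listed genes, 35 were measured, by 68 of the 45037 probe sets tested. The cyclin Ccnb1 was the listed gene without a probe set of its own. Of the 35 genes, 14 had 1 probe set, 11 had 2, 8 had 3 and 2 had 4.

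The study exposed male mice aged 7 to 13 weeks to 0.3 ppm ozone continuously for 6, 24 or 48 hr, or to filtered air, and measured RNA of the left lung on Affymetrix mouse expression arrays. WT mice were B6129SF1/J hybrids, and the knockout lines, which lacked either Notch3 (Notch3-/-) or Notch4 (Notch4-/-), were on a mixed background and were not F1 hybrids, so a difference between a knockout line and WT cannot be told apart from a difference of strain. Each of the 12 groups (3 genotypes, each in air and at 3 ozone times) held 3 mice, with 1 array each. Each genotype had a single air group, and the labels give no length for its air exposure. The deposited values are log2 intensities centred on each probe set's own median over the 36 arrays. A value of 1 thus stands for a level 2-fold above that median, and levels of different genes cannot be ranked against each other.

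A dividing cell builds a spindle of microtubules, attaches each chromosome to it through a kinetochore, waits at a checkpoint until all are attached, cuts the link between sister chromosomes, and then pinches in the middle. Cyclin-dependent kinase 1 (Cdk1) with its cyclins starts these events, and most of the proteins are made shortly before mitosis and destroyed at its end. Their RNA is therefore widely used as a sign of cycling cells, and it is low in the resting adult lung. RNA of a whole lung lobe does not tell whether more cells were in the cycle or whether each such cell held more RNA.

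Many promoters of such genes carry a CHR element, read by the DREAM and MuvB complexes, and near it CCAAT boxes bound by NF-Y. The RefSeq promoters of GRCm38.p6, from 250 bases before to 50 after the transcription start, held 30 of the 35 genes, and both strands were searched for TTTGAA or TTCGAA (CHR) and for CCAAT. Neither string contains the other, and the 2 were counted separately. A CHR string lay in 23 of the 30 promoters (76.7%), against 19.4% of the 27025 genes of the table and 15.1% of the 14369 genes of the table that the array measures. Within the stretch from 100 bases before to 50 after the start, these shares were 73.3% of the members, 8.68% and 6.08%. A CCAAT string lay in 20 of the 30 (66.7%), against 37.9% and 38.2%. Both strings lay in 19 promoters, a CHR string alone in 4, CCAAT alone in 1 (Cenpe), and neither in 6 (Birc5, Mad2l1, Melk, Nuf2, Nusap1 and Pttg1). A match is a description of the letters and no measured binding site.
The 6 stretches below lie upstream of the start and are shown on the strand of the gene, with the matches on either strand in capitals. The first 4 hold both strings, in genes that rose at 48 hr, Birc5 rose with neither, and Pttg1 held neither and did not pass the test.
Cdk1, chr10:69352913-69353032, minus strand: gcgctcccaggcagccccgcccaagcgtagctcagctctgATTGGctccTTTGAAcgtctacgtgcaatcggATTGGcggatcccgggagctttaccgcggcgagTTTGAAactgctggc
Cdc20, chr4:118437344-118437463, minus strand: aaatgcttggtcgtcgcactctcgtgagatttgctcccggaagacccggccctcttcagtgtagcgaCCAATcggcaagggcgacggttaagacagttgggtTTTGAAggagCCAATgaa
Top2a, chr11:99024190-99024309, minus strand: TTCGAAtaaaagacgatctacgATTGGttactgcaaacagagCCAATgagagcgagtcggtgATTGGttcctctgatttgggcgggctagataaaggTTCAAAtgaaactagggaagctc
Mki67, chr7:135716380-135716579, minus strand: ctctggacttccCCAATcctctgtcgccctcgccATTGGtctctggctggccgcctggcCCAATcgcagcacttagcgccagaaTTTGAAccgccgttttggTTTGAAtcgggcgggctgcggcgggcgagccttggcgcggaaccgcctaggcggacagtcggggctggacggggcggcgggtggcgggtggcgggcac
Birc5, chr11:117849117-117849236, plus strand: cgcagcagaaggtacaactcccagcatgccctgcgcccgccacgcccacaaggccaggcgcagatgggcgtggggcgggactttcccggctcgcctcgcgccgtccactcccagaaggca
Pttg1, chr11:43425982-43426101, minus strand: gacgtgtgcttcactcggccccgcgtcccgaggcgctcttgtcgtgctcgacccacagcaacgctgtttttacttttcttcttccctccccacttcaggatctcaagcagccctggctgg

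The other cell cycle lists showed different shares of the same strings. A CHR string lay in 33 of 52 promoters of further mitotic genes (63.5%), in 5 of 24 of S phase genes (20.8%), and in 1 of 12 of subunits of the anaphase-promoting complex (8.33%). CCAAT lay in 76.9%, 66.7% and 41.7% of the same promoters. In 21 of the 30 members a CHR string began within 50 bases of the start, and in 15 it lay after the start. The median of the largest 48 hr difference of a gene (log2, over genotypes) was 1.60 in the members with a CHR string and 1.34 in those without. Those with the string ranged from 0.74 in Cenpa to 2.49 in Cep55. Those without were few, namely Birc5 (2.23), Nuf2 (1.91), Melk (1.79), Nusap1 (1.34), Cenpe (1.30), Mad2l1 (1.12) and Pttg1 (-0.25). The difference between the medians was not tested.

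**Figure D1:**
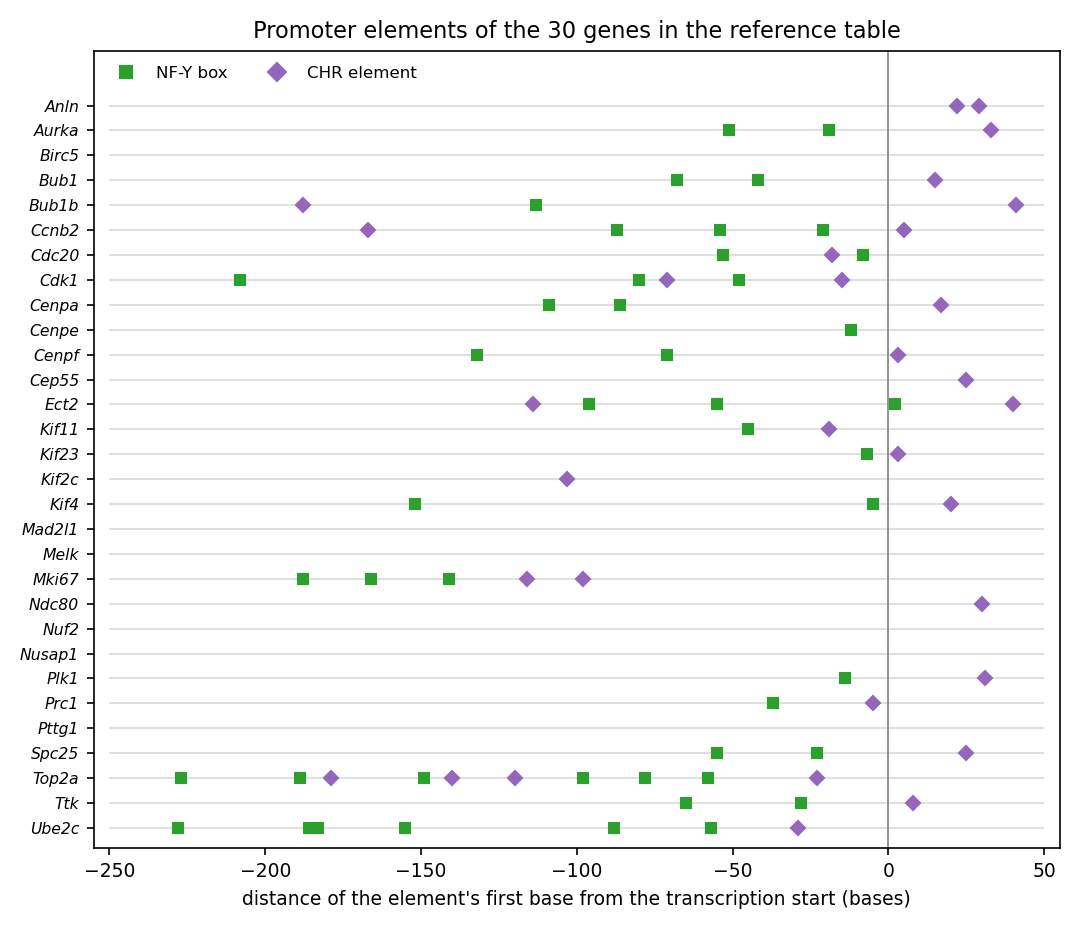
Position of CCAAT strings (NF-Y box, green squares) and CHR strings (purple diamonds) in the promoters of the 30 members in the reference table, in bases from the transcription start (grey line). CHR strings gathered near the start, within 50 bases of it in 21 genes, and the CCAAT strings mostly lay before them.

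The targeted genes were checked first, each by 1 probe set, of 2 for Notch3 and 3 for Notch4. The one taken had the lowest difference of its knockout line from WT in air. The Notch3 probe set read -4.51 to -3.13 in the 12 Notch3-/- mice and -0.53 to 0.60 in the 24 others. The Notch4 probe set read -3.42 to -4.31 in 9 of 9 Notch4-/- ozone mice, and -0.38 to 0.58 in WT and Notch3-/- mice. Among the Notch4-/- air mice it read -3.69 in mouse 3, but -1.97 and -1.40 in mice 1 and 2, which thus stood apart from the rest of their genotype. Those 2 arrays also had the lowest standard deviations over all probe sets of the 36 (0.207 and 0.164, against a highest of 0.426), and their mean over the mitosis genes was above that of every other mouse outside the 48 hr groups. The main counts and values that rest on Notch4-/- air are therefore also given without these 2 mice. That leaves 1 mouse in the group, which is assumed to vary as the other groups do. The array of this mouse 3 had a standard deviation of 0.338, rank 34 of the 36 counted from the lowest. Values without the 2 mice rest on that array alone.

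Transcripts of the mitosis genes stood near their median level in air and after 6 and 24 hr of ozone, and rose after 48 hr in all 3 genotypes. The mean over the 35 genes (each gene weighted equally, log2 relative to the probe set medians) was -0.75, -0.24 and -0.21 in the 3 WT air mice and 1.15, 1.06 and 0.75 in the 3 WT mice at 48 hr. The 48 hr mice lay above every air mouse. Notch3-/- mice read -0.45, -0.47 and 0.03 in air and 0.93, 1.18 and 1.38 at 48 hr. Notch4-/- mice read 0.55, 0.75 and -0.21 in air and 1.45, 0.84 and 1.37 at 48 hr, again without overlap, with the highest air mouse at 0.75 and the lowest 48 hr mouse at 0.84. At 6 hr the 9 mice of the 3 genotypes lay between -0.54 and 0.04, and at 24 hr between -0.47 and 0.20, below each of the 48 hr mice. No p is given for this mean, since the members were chosen with earlier results of these data known.

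**Figure D2:**
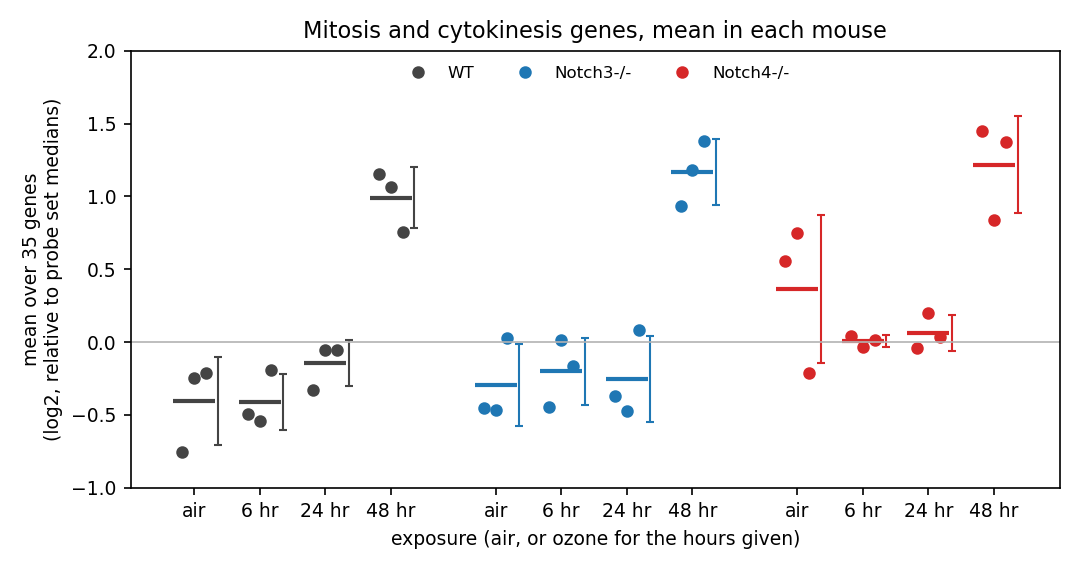
Mean log2 value over the 35 mitosis and cytokinesis genes in each mouse (points), by genotype and exposure, with the group mean (line) and the SD over 3 mice (bar beside it). The 9 mice at 48 hr lie between 0.75 and 1.45, and 2 Notch4-/- air mice at 0.55 and 0.75 lie above every other mouse outside 48 hr.

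Counted by probe set, with limma and Benjamini-Hochberg adjustment over all probe sets, 45 of the 68 rose at 48 hr in WT mice (66.2%, 33 genes), against 1.89% of all probe sets called in that comparison. In Notch3-/- mice 46 rose (67.6%, 33 genes), against 2.46%, and in Notch4-/- mice 18 rose (26.5%, 16 genes), against 1.75%. None fell in any of the 3. The median difference over the 68 probe sets was 1.33 in WT, 1.48 in Notch3-/- and 0.86 in Notch4-/- mice. Each of the 16 genes called in Notch4-/- mice was also called in WT and Notch3-/- mice. The Notch4-/- count depended on the setting. Without the 2 air mice that stood apart 36 probe sets rose, with a median difference of 1.42, and without air mouse 3 only 3 did. By the methods' ANOVA with Tukey's test, after a second quantile normalization, and with only the compared groups in the fit, 0 were called.

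Taken as the mean over genotypes, 9 mice against 9, 52 of 68 probe sets rose at 48 hr (76.5%, 34 of 35 genes), against 10.7% of all probe sets called. The median difference was 1.21 (log2). Leaving out any single mouse gave 50 to 52, and leaving out both Notch4-/- air mice that stood apart gave 50, with a median of 1.36. Against 24 hr of ozone in place of air, a comparison that uses no air mouse, 47 probe sets of 34 genes rose, against 6.71% of all probe sets, with a median difference of 1.19. Of the 35 genes, 34 had their highest group mean in a 48 hr group, and Pttg1 had it in Notch3-/- mice at 6 hr.

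At 6 and 24 hr no member probe set passed limma's threshold in any genotype. All probe sets called there came to 0% and 0.104% in WT, 0.16% and 2.72% in Notch3-/-, and 0.00666% and 1.39% in Notch4-/- mice. At an unadjusted p under 0.05, 1 and 4 of the 68 passed in WT (8.16% and 9.71% of all probe sets), 2 and 2 in Notch3-/- (12.1% and 19.1%), and 9 and 9 in Notch4-/- mice (10.5% and 17.4%), and the methods' ANOVA with Tukey's test called 0 in each. The member counts were thus near or below those of all probe sets. Over the 3 genotypes 1 probe set fell at 6 hr (Cenpf, 1452334_at, -0.38, SE 0.08, adjusted p 0.0099, against 2.9% called) and 1 at 24 hr (Cenpa, 1450842_a_at, -0.54, SE 0.15, adjusted p 0.029, against 5.29% called). The other Cenpf probe sets did not pass at 6 hr, and the other Cenpa probe sets did not pass at 24 hr. Without the 2 Notch4-/- air mice, 3 members were called at 24 hr in Notch4-/- mice and 3 over the genotypes.

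**Figure D3:**
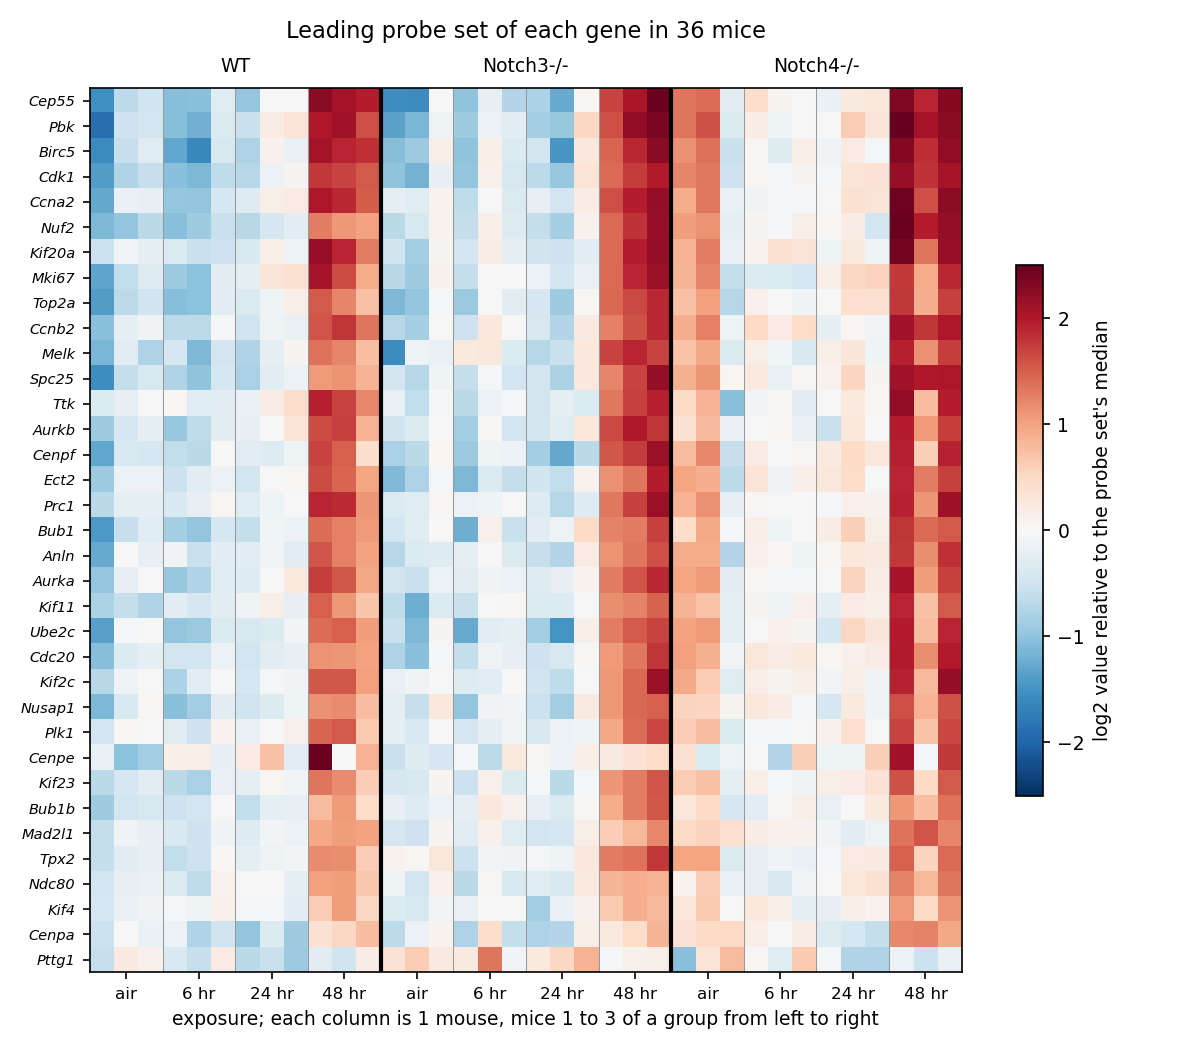
Log2 value relative to the probe set's median (colour, limited to -2.5 to 2.5) of 1 probe set per gene (rows, the one with the largest 48 hr difference over genotypes) in 36 mice (columns, by genotype and exposure). Red fills the 9 mice at 48 hr in all rows but Pttg1 and, in part, Cenpe, and is also seen in Notch4-/- air mice 1 and 2.

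The cyclins and kinases that drive entry into mitosis were among the genes with the largest differences. Cdk1, the kinase that starts mitosis, read -1.40, -0.74 and -0.58 in WT air mice and 1.76, 1.68 and 1.54 at 48 hr. The groups were far apart, and the difference was 2.57 (SE 0.36, 5.94-fold, adjusted p 9.8e-05). In Notch3-/- mice Cdk1 read -1.0, -1.19 and -0.20 in air and 1.42, 1.76 and 1.97 at 48 hr (2.51, SE 0.36, 5.71-fold, adjusted p 9.6e-05). In Notch4-/- mice it read 1.22, 1.32 and -0.52 in air and 2.18, 1.80 and 2.06 at 48 hr. The 2 high air mice left a difference of 1.34 (SE 0.36, adjusted p 0.052) that did not pass, and without them it was 2.53 (SE 0.42, adjusted p 0.0011). Between these times Cdk1 lay between -1.12 and 0.36 in the 18 mice at 6 and 24 hr.

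Ccnb2, a B-type cyclin that binds Cdk1, read -1.04, -0.24 and -0.09 in WT air mice and 1.57, 1.78 and 1.34 at 48 hr. It rose in each genotype, by 2.02 (SE 0.30, 4.05-fold) in WT, 2.09 (4.26-fold) in Notch3-/- and 1.29 (2.45-fold, adjusted p 0.017) in Notch4-/- mice, the last 2.10 without the 2 air mice. Ccna2, the cyclin of S phase and early mitosis, rose by 2.21 (SE 0.32, 4.61-fold) in WT and 2.33 (5.03-fold) in Notch3-/- mice by its probe set 1417910_at. Plk1, the kinase needed for spindle assembly and exit from mitosis, read -0.48, 0.03 and -0.00 in WT air mice and 1.46, 1.53 and 0.66 at 48 hr, and rose in each genotype (2.58-fold, 2.93-fold and 2.02-fold, the last with adjusted p 0.037). Without the 2 air mice its Notch4-/- difference was 1.70 (log2, adjusted p 0.0042). Aurka, the kinase of the spindle poles, rose by 1.80 in WT and 1.97 in Notch3-/- mice, and its other probe set, 1440129_at, was not called in any 48 hr comparison. Melk and Pbk, kinases whose RNA follows the cell cycle, differed by 1.84 and 2.86 in WT mice and by 2.38 and 2.93 in Notch3-/- mice, all past the threshold. Of the 9 probe sets of this group, 8 rose in WT, 8 in Notch3-/- and 3 in Notch4-/- mice, 8 in the last without the 2 air mice.

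All 3 probe sets of the chromosomal passenger genes rose in WT and in Notch3-/- mice, and 2 did in Notch4-/- mice (3 without the 2 air mice). This complex corrects wrong attachments and moves to the middle of the spindle in late mitosis. Birc5 (survivin), its targeting subunit, read -1.59, -0.57 and -0.30 in WT air mice and 2.07, 1.90 and 1.82 at 48 hr (2.75, SE 0.44, 6.73-fold, adjusted p 0.00042). Its kinase Aurkb read -0.34, 0.16 and -0.43 in WT air mice and 0.86, 0.65 and 0.66 at 48 hr by probe set 1451246_s_at (0.93, SE 0.21, adjusted p 0.013). That probe set went in Notch3-/- mice from -0.44, -0.48 and 0.05 to 1.29, 1.30 and 2.00. The rise there was 1.82 (SE 0.21, 3.54-fold, adjusted p 1.1e-05). The 2 genotypes did not overlap at 48 hr, but the test of the difference between their responses (0.90, SE 0.30) gave an unadjusted p of 0.0051 and an adjusted p of 1. The other Aurkb probe set, 1424128_x_at, rose by 1.91 in WT and 2.09 in Notch3-/- mice.

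The spindle checkpoint genes hold back anaphase until every kinetochore is attached. Mad2l1, its diffusing inhibitor, read -0.59, -0.08 and -0.21 in WT air mice and 0.97, 1.05 and 1.01 at 48 hr. It rose by 1.30 (SE 0.17, 2.47-fold, adjusted p 3.7e-05) in WT, 1.17 in Notch3-/- and 0.89 (adjusted p 0.0047) in Notch4-/- mice, the last 0.97 (adjusted p 0.037) without the 2 air mice. Bub1, the checkpoint kinase at the kinetochore, read -1.44, -0.58 and -0.30 in WT air mice and 1.40, 1.25 and 1.06 at 48 hr, and rose 4.03-fold, 3.20-fold and 2.18-fold in the 3 genotypes (adjusted p 0.035 in Notch4-/-, and 0.024 with a difference of 1.61 without the 2 air mice). Bub1b (BubR1) rose by 1.04 (SE 0.18) in WT and 1.13 in Notch3-/- mice, and its difference of 0.60 in Notch4-/- mice did not pass by this probe set (adjusted p 0.08) while 1447363_s_at did (0.95, adjusted p 0.017). Without the 2 air mice these were 0.87 (adjusted p 0.061) and 1.50 (adjusted p 0.003). Of the 8 probe sets, 5, 7 and 5 rose in WT, Notch3-/- and Notch4-/- mice, and 4 in the last without the 2 air mice.

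Anaphase begins when Cdc20 and the ubiquitin-conjugating enzyme Ube2c direct the anaphase-promoting complex to securin (Pttg1), whose loss frees separase. Cdc20 read -1.07, -0.34 and -0.22 in WT air mice and 1.12, 1.10 and 1.0 at 48 hr (1.62, SE 0.27, 3.07-fold, adjusted p 0.0006), and it rose in Notch3-/- (2.01) and Notch4-/- mice (1.09, adjusted p 0.027, or 1.78 without the 2 air mice) as well. Ube2c rose by 1.58 over the genotypes. Pttg1 was the only gene without a called probe set at 48 hr, with differences of -0.33 to -0.25 over the genotypes in its 3 probe sets. The 13 subunits of the anaphase-promoting complex measured, by 36 probe sets, had a median difference of 0.03 over the genotypes at 48 hr, with 1 probe set higher and 1 lower.

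Pttg1 differed between Notch3-/- and WT mice, to a degree that depended on the probe set and the fit. By probe set 1424105_a_at it read 0.30 to 0.79 in the 12 Notch3-/- mice and -0.58 to 0.06 in the 12 WT mice, without overlap at any time. In Notch4-/- mice it ranged from -3.16 to 0.72, which overlapped both of these ranges. The lowest value was in the third mouse at 24 hr, and the second mouse at 48 hr read -1.83. Averaged over the ozone times, the Notch3-/- minus WT difference was 0.86 by this probe set and did not pass in the fit of all 36 arrays (adjusted p 0.059). With only the WT and Notch3-/- ozone arrays fitted, the same 0.86 had SE 0.08 (adjusted p 4.4e-06). Probe set 1419620_at passed in both fits (0.76, adjusted p 0.024 and 0.013). Probe set 1438390_s_at (0.61) passed only in the smaller fit (adjusted p 0.23 in the full fit and 6.3e-07 in the smaller). In air no Pttg1 probe set was called between Notch3-/- and WT mice. The difference between these genotypes was singled out after its values were seen. The share of all probe sets without overlap between the 12 Notch3-/- and 12 WT mice is not given here. Over the ozone times 3 of the 68 member probe sets were called in the fit of all arrays (4.41%), near the 4.89% of all probe sets.

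At the kinetochore, Nuf2, a subunit of the Ndc80 complex that grips microtubules, had the smallest adjusted p of the members over the genotypes (1.91, SE 0.16, 3.77-fold, adjusted p 4.2e-09). It read -1.12, -0.99 and -0.67 in WT air mice and 1.28, 1.09 and 1.01 at 48 hr. In Notch4-/- mice it read 1.05, 1.12 and -0.25 in air and 2.45, 1.96 and 2.20 at 48 hr, and rose by 1.56 (SE 0.28, 2.96-fold, adjusted p 0.0029) with the high air mice included and by 2.46 without them. Ndc80 rose by 1.19, 1.03 and 0.95 in WT, Notch3-/- and Notch4-/- mice, the last 1.30 without the 2 air mice. Cenpe, the motor that carries chromosomes to the middle of the spindle, read -0.60, -0.13 and -0.35 in WT air mice and 1.15, 1.39 and 0.49 at 48 hr by probe set 1435005_at (1.37, SE 0.28, 2.59-fold, adjusted p 0.0049). In Notch4-/- mice its difference of 0.63 did not pass (adjusted p 0.33), and without the 2 air mice it was 1.48 and did (adjusted p 0.014). Cenpa, the histone of the centromere, was called by 1 of its 3 probe sets, 1450842_a_at, over the genotypes (0.74, adjusted p 0.0009), and in no single genotype. Of the 12 probe sets, 7 rose in WT, 5 in Notch3-/- and 3 in Notch4-/- mice (5 without the 2 air mice).

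Among spindle motors and microtubule proteins, Kif11 (Eg5), which pushes the spindle poles apart, read -0.33, -0.12 and -0.12 in WT air mice and 1.39, 0.91 and 0.78 at 48 hr by 1452314_at (1.22, SE 0.24, 2.33-fold, adjusted p 0.0033). It rose by 1.48 in Notch3-/- mice, and its difference in Notch4-/- mice did not pass, at 0.76 with all air mice (adjusted p 0.11) and 1.19 without the 2 (adjusted p 0.054). Over the genotypes Kif2c, which takes microtubules apart, rose by 1.50, Nusap1 by 1.34, Tpx2 by 1.10 and Kif4 by 0.87, each by its probe set with the largest difference. Of the 14 probe sets, 7 rose in WT, 8 in Notch3-/- and 1 in Notch4-/- mice (4 without the 2 air mice).

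The genes of the central spindle and cytokinesis included the largest difference of all members. Cep55, which organises the final cut between daughter cells, read -1.53, -0.66 and -0.50 in WT air mice and 2.25, 2.09 and 1.97 at 48 hr (3.00, SE 0.41, 7.98-fold, adjusted p 6.3e-05). In Notch3-/- mice it read -1.54, -1.57 and -0.02 in air and 1.69, 2.04 and 2.48 at 48 hr (3.11, 8.65-fold). In Notch4-/- mice it read 1.33, 1.39 and -0.28 in air and 2.33, 1.91 and 2.30 at 48 hr, and the difference of 1.36 did not pass (adjusted p 0.088). Without the high air mice it was 2.46 (SE 0.52, adjusted p 0.0087). Kif20a, which moves the passenger complex to the central spindle, rose in each genotype (2.07, 2.30 and 1.31, the last 2.13 without the 2 air mice). Prc1, which bundles the microtubules of the central spindle, read -0.81, -0.38 and -0.36 in WT air mice and 1.59, 1.50 and 0.58 at 48 hr by 1423774_a_at (1.74, SE 0.34, adjusted p 0.0034). Ect2, the activator of RhoA in the cleavage furrow, rose by 1.75 in WT and 2.12 in Notch3-/- mice. Of the 11 probe sets, 9, 10 and 3 rose in WT, Notch3-/- and Notch4-/- mice, and 7 in the last without the 2 air mice.

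Mki67, the coat protein of mitotic chromosomes and the antigen of the Ki-67 stain, read -1.32, -0.62 and -0.32 in WT air mice and 2.07, 1.63 and 0.92 at 48 hr (2.30, SE 0.36, 4.91-fold, adjusted p 0.00035). It rose 4.99-fold in Notch3-/- mice, and in Notch4-/- mice, at 0.84, 1.23 and -0.60 in air and 1.76, 0.93 and 1.89 at 48 hr, the groups overlapped and the difference of 1.04 did not pass (adjusted p 0.17). Without the 2 air mice that difference was 2.13 (adjusted p 0.0062). Top2a, the topoisomerase that untangles sister chromosomes, depended on the probe set. By 1454694_a_at it read -1.40, -0.64 and -0.50 in WT air mice and 1.53, 1.23 and 0.73 at 48 hr (2.01, SE 0.36, 4.03-fold, adjusted p 0.0015), while 1427724_at stayed between -0.28 and 0.10 in the same 6 mice (0.02, SE 0.13, adjusted p 0.99).

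**Figure D4:**
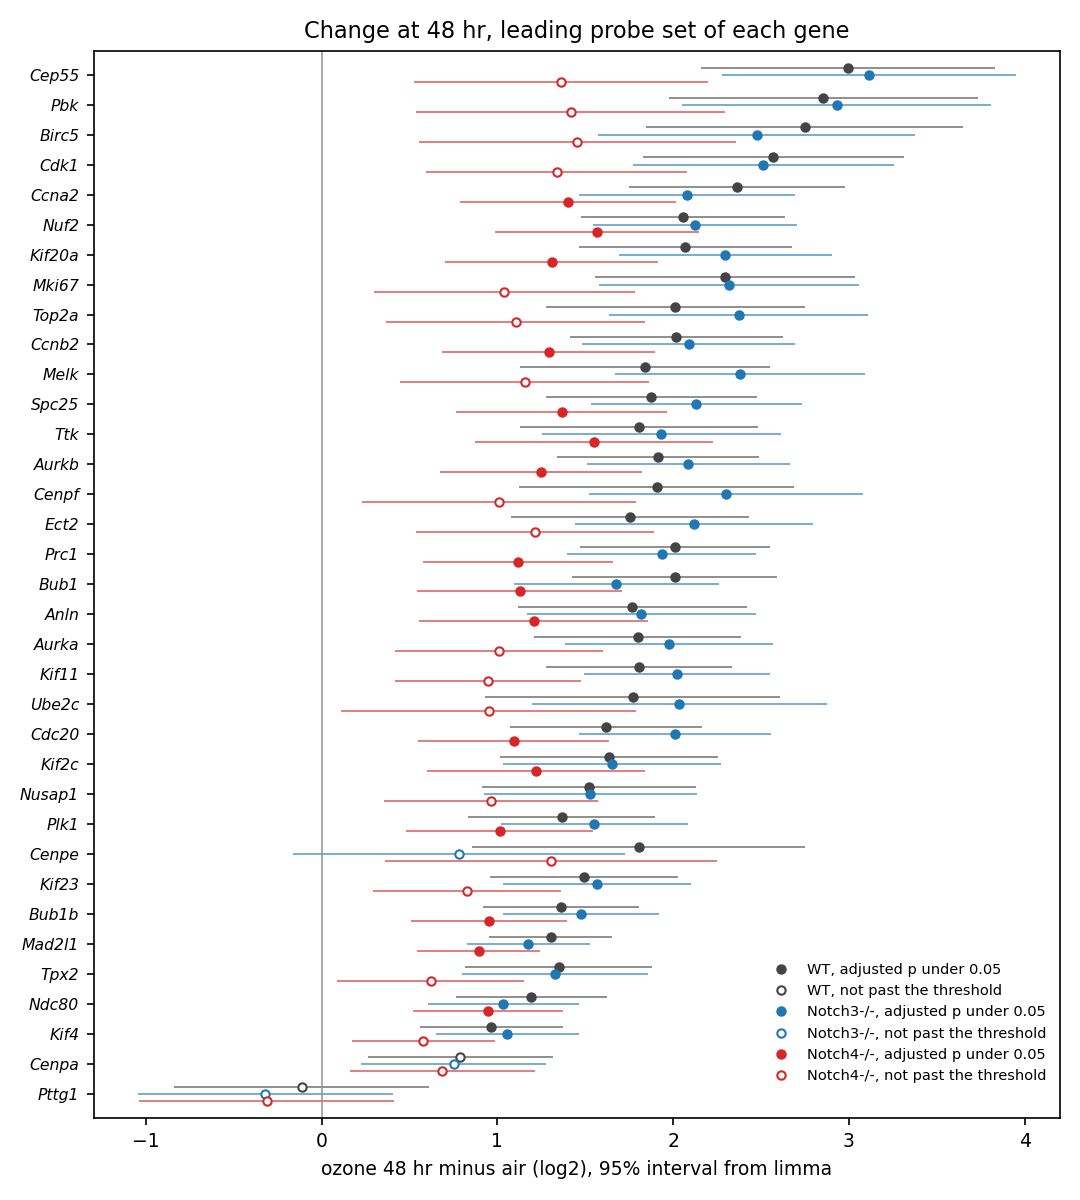
Difference of ozone 48 hr minus air (log2, x axis) for 1 probe set per gene (the one with the largest difference over genotypes) in WT (grey), Notch3-/- (blue) and Notch4-/- mice (red), with the 95% interval from limma and filled points where the adjusted p was under 0.05. All 3 air mice of each genotype are included. WT and Notch3-/- points lie close together, Notch4-/- points lie to their left for nearly every gene, and their intervals mostly overlap.

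Probe sets of the same gene often disagreed. Of the 21 genes with several, 10 had some but not all called at 48 hr over the genotypes, and 16 probe sets of 11 genes were called in no 48 hr comparison. Probe sets called over the genotypes had a median SD over the 36 mice of 0.794 and the others 0.181, close to the 0.191 of all probe sets. The values are centred, so whether an uncalled probe set was above background cannot be read from them. No member probe set was called lower at 48 hr, so no 2 probe sets of a gene were called in opposite directions.

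**Figure D5:**
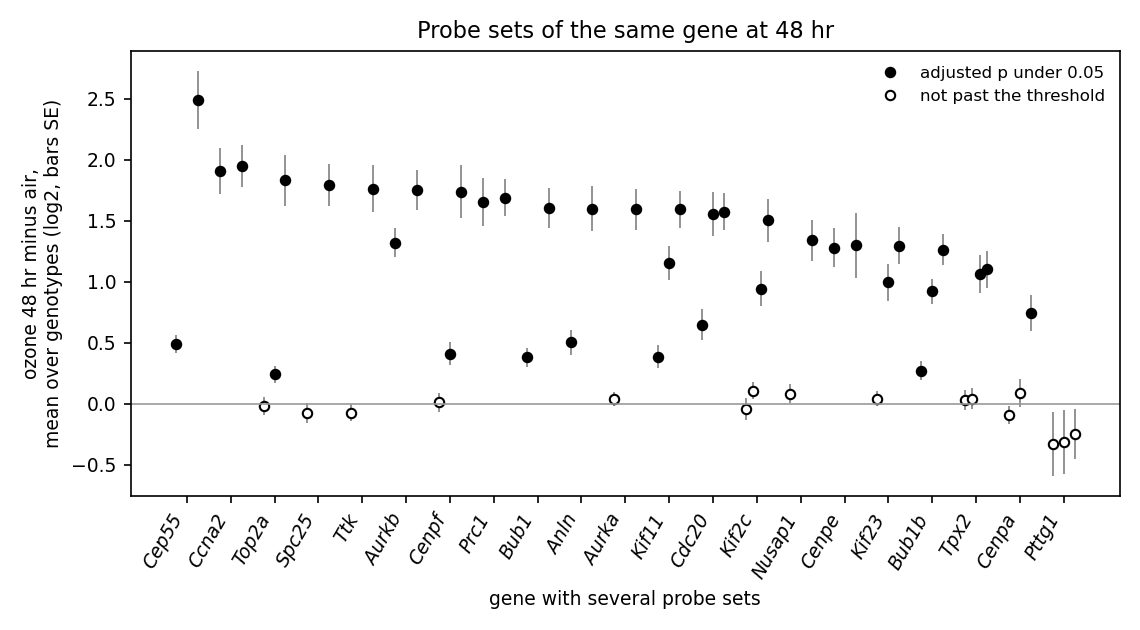
Difference of ozone 48 hr minus air as the mean over genotypes (log2, y axis, bars SE) for every probe set of the 21 genes with several, filled where the adjusted p was under 0.05. In Top2a, Spc25, Ttk, Aurka and others, 1 probe set near 0 stands beside another that rose by more than 1.5.

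In air, the knockout lines were compared with WT. No member probe set was called between Notch3-/- and WT mice (limma, 1 of 68 at an unadjusted p under 0.05, 0 by the methods' ANOVA with Tukey's test), against 0.486% of all probe sets called. Between Notch4-/- and WT mice 8 probe sets of 8 genes were higher in Notch4-/- (11.8%), against 0.482%. These were Bub1, Cdc20, Kif11, Mad2l1, Nuf2, Spc25, Cdk1 and Pbk, with differences from 0.78 in Mad2l1 (SE 0.17, adjusted p 0.026) to 1.81 in Pbk (SE 0.43, adjusted p 0.049). Without both air mice that stood apart, 0 probe sets were called. The differences of the 8 were then 0.39 in Cdk1 (SE 0.42, adjusted p 0.77) to 0.89 in Spc25 (SE 0.39, adjusted p 0.31), and all but that of Mad2l1 had fallen by over 0.4. Leaving out Notch4-/- air mouse 1 or mouse 2 alone also gave 0, leaving out mouse 3 gave 27, and leaving out a single WT air mouse gave 1 to 3. Between Notch4-/- and Notch3-/- air mice 0 were called against 0.0866% of all. At an unadjusted p under 0.05, 32 of 68 passed, against 12.6% of all, and the methods' ANOVA with Tukey's test called 0.

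In Mad2l1 all 3 Notch4-/- air mice, at 0.50, 0.55 and 0.41, lay above the WT air mice, at -0.59, -0.08 and -0.21. Without the 2 mice its difference was 0.70 (SE 0.25), against 0.78 with them, and did not pass (adjusted p 0.19). It was singled out after its values were seen.

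Averaged over the 3 ozone times, which use no air mouse, 6 probe sets of 5 genes were higher in Notch4-/- than in WT mice, against 3.96% of all probe sets called. Spc25, a further subunit of the Ndc80 complex, was higher by 0.81 (SE 0.17, 1.75-fold, adjusted p 0.0038), Nuf2 by 0.78 (SE 0.16, 1.72-fold, adjusted p 0.0037), Bub1 by 0.57, Cdc20 by 0.55 and Cenpa by 0.38 (1444416_at). The median over the 68 probe sets was 0.20. With only the ozone arrays of those 2 genotypes fitted, 12 were called, Cdk1 (0.59, adjusted p 0.0031), Ccnb2 (0.48) and Mad2l1 (0.29) among them. The share of all probe sets called in that fit is not given here. In Notch3-/- mice 3 probe sets were higher than in WT, against 4.89% of all, with a median of 0.06. These were Pttg1 as above, Cenpa 1444416_at (0.39) and Bub1 1438571_at (0.31). With only the WT and Notch3-/- ozone arrays fitted, this Cenpa probe set did not pass (adjusted p 0.095). The Bub1 probe set passed there (adjusted p 0.0035). Leaving out single ozone mice gave 3 to 5 for Notch4-/- and 0 to 3 for Notch3-/- mice, 0 without the third Notch3-/- mouse at 24 hr. Cell type markers also differed between the lines over the ozone times. Of 6 neutrophil probe sets 3 were higher in Notch4-/- and 6 in Notch3-/- than in WT mice (medians 0.67 and 1.14), and of 7 megakaryocyte probe sets 2 and 1 were (0.38 and 0.22). Of 11 alveolar macrophage probe sets 4 were lower in Notch4-/- mice. The part of these cells in the higher mitosis genes was not tested.

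Whether the response to ozone differed between a knockout line and WT was tested as such. No member probe set was called at any time in either line, nor for Notch4-/- without the 2 air mice that stood apart. All probe sets called came to 0.00888%, 0.00444% and 0.00222% for Notch3-/- at 6, 24 and 48 hr, and to 0%, 0% and 0.00222% for Notch4-/-. At an unadjusted p under 0.05 the counts were 0, 0 and 4 of 68 for Notch3-/- (4.86%, 10.2% and 2.89% of all probe sets) and 3, 14 and 11 for Notch4-/- (3.09%, 5.25% and 3.29%), and the methods' ANOVA called 0 in each. The Notch4-/- counts at 24 and 48 hr were above those shares. The median difference of the Notch4-/- from the WT response was -0.45 at 48 hr, and for Cep55 it was -1.63 (SE 0.58, 95% interval -2.82 to -0.45, adjusted p 0.9997). For Cdk1 it was -1.23 (SE 0.51). Without the 2 Notch4-/- air mice the median was 0.05, and the differences were -0.54 (SE 0.63) in Cep55 and -0.04 (SE 0.51) in Cdk1. The smaller number of calls in Notch4-/- mice at 48 hr is thus not shown to be a smaller response. For Notch3-/- the same difference was 0.12 in Cep55 (95% interval -1.07 to 1.30) and -0.06 in Cdk1 (-1.11 to 0.99). The first interval holds a response 2-fold larger or smaller than that of WT, and the second holds a 2-fold smaller one.

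All 3 mice at 48 hr lay above all 3 air mice of their genotype in 48 of 68 probe sets in WT (6.57% of all probe sets), 49 in Notch3-/- (10.3%) and 25 in Notch4-/- mice (9.2%). Set against the third Notch4-/- air mouse alone, a count added after the data were seen, 55 of 68 did (29.2%).

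At 48 hr, WT mouse 3 and Notch4-/- mouse 2 had the lowest mean over the members in their groups (0.75 and 0.84). Each gene was read by its probe set with the largest 48 hr difference over genotypes. WT mouse 3 then lay below the mean of the other 2 WT mice in 33 of 35 genes. Notch4-/- mouse 2 lay below its pair in 33, with 32 genes in both. Their low means make such counts likely, and the share of all probe sets lower in these arrays is not given here. Notch3-/- mice are not described in this way. In WT mice the gap was largest in Cenpf, a kinetochore protein of late G2 (1.69, 1.49 and 0.44), followed by Mki67 (-0.93) and Plk1 (-0.83). In Notch4-/- mice it was largest in Cenpe (-1.98, against -0.37 in WT), followed by Cenpf (1.94, 0.60 and 1.91) and the checkpoint kinase Ttk (-1.31). Mki67 and Plk1 had gaps of -0.89 and -0.96 there. In Cdk1 (-0.19 and -0.32), Birc5 (-0.16 and -0.41) and Mad2l1 (0.00 and 0.28) the same mice stood close to the others of their group. Across the 35 genes the gaps of the 2 mice went together (Pearson r 0.601, Spearman rho 0.704), given without a p, since genes of 1 array are not independent. The array of that Notch4-/- mouse had the highest standard deviation of the 36 (0.426). Its 3' minus 5' signal, a sign of RNA quality, was 0.36 for Actb and 0.17 for Gapdh (log2), against -0.22 and -0.03 for Actb and -0.20 and 0.02 for Gapdh in the other 2 mice of its group. WT mouse 3 lay within its group in both (-0.08 and -0.18). Its array had a standard deviation of 0.312, the highest of the WT arrays, against 0.270 and 0.279 in the other 2 of its group. The part of these in the gap was not tested. This pattern was chosen after the values were seen.

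Other genes of the cell cycle were read from lists made by role. Of 136 probe sets of 62 further mitotic genes, 62 rose at 48 hr in WT, 70 in Notch3-/- and 32 in Notch4-/- mice, and 88 over the genotypes, with no probe set lower and a median of 0.64. By the probe set standing for each gene, Shcbp1 (2.05), the condensin subunit Ncapg (1.77), Depdc1a (1.71) and the spindle pole protein Aspm (1.69) had the largest differences over the genotypes. Of 67 probe sets of 30 S phase genes, 40, 46 and 11 rose in WT, Notch3-/- and Notch4-/- mice and 54 over the genotypes, with a median of 0.65 and a highest difference of 1.85. By the probe set standing for each gene, thymidine kinase Tk1 (1.73), Uhrf1 (1.67) and the ribonucleotide reductase subunit Rrm2 (1.52) led. Without the 2 Notch4-/- air mice, 51 of the further mitotic and 18 of the S phase probe sets rose in Notch4-/- mice, and 86 and 52 over the genotypes. At 48 hr the genes that copy DNA and those that divide the cell were thus both raised, with like medians in the S phase and further mitotic lists. The median of 1.21 in the 68 member probe sets cannot be ranked against these, since members and lists were chosen with earlier results known.

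Fewer of the regulators were called, nearer to the 10.7% of all probe sets called over the genotypes. Of 42 probe sets of 21 cell cycle transcription factors, 9 rose over the genotypes and none fell, E2f8 by 1.10, Myc by 0.64, Rbl1 by 0.48 and Mybl2 by 0.37. Of 38 probe sets of 16 G1 cyclins and CDK inhibitors, 2 rose and 4 fell over the genotypes, with Cdk4 at 0.29, Cdkn2b at 0.29, Cdk6 at -0.35 and the growth arrest gene Gas1 at -0.48. None was called in a single genotype at 48 hr, and without the 2 Notch4-/- air mice 0 rose and 1 fell over the genotypes. In air, 1 of the 38 was lower than in WT in each knockout line, against 0.486% (Notch3-/-) and 0.482% (Notch4-/-) of all. The lowest difference was -1.97 in Notch3-/- mice. In Notch4-/- mice it was that of the CDK inhibitor gene Cdkn2a (-1.44, SE 0.26, adjusted p 0.0044). Over the ozone times 2 were lower in each line, and 1 was higher in Notch4-/-. In air, Notch4-/- mice also stood above WT in 4 probe sets of further mitotic genes (Cenpk by 1.34, Cks2 by 0.89) and 4 of S phase genes (Cdc6 by 1.18, Ccne2 by 1.05, Mcm6 by 0.88). Without the 2 air mice that stood apart, 0 probe sets of both lists were called in air, and Cdkn2a differed by -1.33 (SE 0.37, adjusted p 0.11).

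Markers of lung and blood cell types were read beside these results. At 48 hr over the genotypes, where 10.7% of all probe sets were called, 5 of 8 endothelial probe sets fell (Tie1 by 0.54, Emcn by 0.52, Pecam1 by 0.42; 3 without the 2 Notch4-/- air mice), and the mean of that list went from between 0.12 and 0.29 in WT air mice to between -0.35 and -0.00 at 48 hr. It went from -0.16 to 0.08 down to -0.40 to -0.15 in Notch3-/- mice, and from -0.16 to 0.10 down to -0.81 to -0.25 in Notch4-/- mice. Of 11 alveolar macrophage probe sets 5 rose (Marco by 0.92, Chil3 by 0.41). Their mean was -0.27 to 0.24 in WT air and 0.19 to 0.44 at 48 hr, -0.16 to -0.01 and 0.09 to 0.36 in Notch3-/-, and -0.22 to 0.02 and 0.04 to 0.27 in Notch4-/- mice. Of 17 monocyte probe sets 4 rose (Vcan by 0.99, Fn1 by 0.42). The group mean of the monocyte list went from -0.20 in air to 0.09 at 48 hr in WT mice. It went from 0.01 to 0.45 in Notch3-/- mice and from 0.16 to 0.15 in Notch4-/- mice, all air mice included. Air and 48 hr mice overlapped in each genotype. Of 13 probe sets of germinal centre B and plasma cells 4 rose (Sdc1 by 0.35), while 2 of 12 of T cells, 2 of 5 of club cells and 1 of 9 of alveolar type 1 cells fell. A single probe set rose for ciliated cells (Tubb4b), fibroblasts (Pdgfra) and immature neutrophils (Chil3, also a macrophage gene). No probe set was called for alveolar type 2 cells, neutrophils, thymocytes, B cells, erythroid precursors, megakaryocytes or muscle. Counts of 1 or 2 probe sets in a list lay near the share of all probe sets, apart from that of club cells, which was 0 without the 2 Notch4-/- air mice. Without them 3 of 7 megakaryocyte probe sets fell. The part of these cells in the change of the mitosis genes was not tested. Between Notch4-/- and WT air mice no marker probe set was called in any list, with medians of 0.68 for neutrophils, 0.43 for monocytes and 0.40 for B cells. Without the 2 air mice these were 1.26, 0.07 and 1.34, and 1 B cell probe set was called.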

How the data were processed

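RNA of the left lung of 36 mice was hybridised to Affymetrix mouse expression arrays. The deposited values are log2 intensities that the authors normalised by robust multiarray average in GeneSpring GX. In the table the median of every probe set across all 36 arrays was 0 (within 5e-07), so brightness and detection cannot be read from the table, and the number of arrays limits the precision. Of 45101 probe sets, 64 Affymetrix controls were left out. The platform annotation gave 1 symbol for 34945 probe sets, several for 932 and none for 9160, and 34741 of the first were matched to RefSeq by gene ID.

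Groups came from the labels, and the 3 samples of a group are separate mice. limma 3.58.1 in R 4.3.3 fitted 1 mean for each of the 12 groups over all arrays (24 residual degrees of freedom), and 24 comparisons were tested with Benjamini-Hochberg adjustment over 45037 probe sets, called at an adjusted p under 0.05. The step was tested on simulated data. The mean over the members weighted genes equally, and each gene's probe sets equally. The methods' two-way ANOVA with Tukey's test, array weights, 2 other scalings, 2 filters, a robust prior, the replicate block, gene means in place of probe sets, a joint adjustment, fits of only the groups compared, and leaving out mice were alternatives.

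Members and lists, cell type markers included, were chosen with earlier results of these data known. Values for every mouse were given for members named for their role (among them Mki67, Top2a, Cdk1, Ccnb2, Plk1, Aurkb, Bub1, Cenpe, Kif11, Birc5 and Prc1) and for up to 12 more with the smallest adjusted p, with the lowest-numbered probe set of the plainest suffix standing for a gene. From each other list up to 4 genes with the largest change past the threshold were named. Promoters were read from RefSeq (GRCm38.p6), 1 for each gene.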

Additional observations from a re-analysis of the deposited data

Results flagged for a closer look

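The mean over the mitosis genes at 24 hr of ozone moved in opposite directions in WT and Notch4-/- mice. In WT it lay 0.259 above the air mean, with all 3 mice above it, and in Notch4-/- mice 0.3 below, with all 3 mice below, a difference of responses of -0.559 (log2). The difference was not tested. The Notch4-/- air mean of 0.37 holds the 2 mice at 0.55 and 0.75, and the third air mouse, at -0.21, lay below each of the 3 Notch4-/- mice at 24 hr (-0.04, 0.20 and 0.04).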

How the results depend on the processing

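The rise at 48 hr over the genotypes, in WT and in Notch3-/- mice kept its direction under each alternative. With the methods' ANOVA and Tukey's test 12 member probe sets were called in WT, 22 in Notch3-/- and 0 in Notch4-/- mice at 48 hr. Between Notch4-/- and WT in air 0 were called. Over the ozone times the ANOVA was used with a plain t test in place of Tukey's, and 3 were called for Notch4-/-. With array weights 1 was called in WT at 24 hr. In Notch4-/- mice 20, 12 and 39 were called at 6, 24 and 48 hr. Over the genotypes there were 7 and 4 at 6 and 24 hr. For Notch4-/- there were 36 and 40 against WT and Notch3-/- in air, and 14 over the ozone times. This setting gave Notch4-/- air mouse 1, which stood apart, the highest weight of the 36 arrays (4.1). Air mouse 3 had a weight of 0.416. The counts under alternatives are given without the share of all probe sets. A second quantile normalization gave 1 and 0 in Notch4-/- mice at 24 and 48 hr, and 13 and 3 against WT and Notch3-/- in air. With only the groups compared in the fit, calls were 27 in WT and 0 in Notch4-/- mice at 48 hr, 0 for Notch4-/- in air and 12 over the ozone times. Centring each array, using only probe sets with 1 symbol, and using only the more variable probe sets each gave 1 call in Notch4-/- mice at 24 hr, and the last gave 2 against Notch3-/- in air. The replicate block gave 1 there too. Same-numbered mice deviated together weakly (median correlation 0.0744, lowest -0.505), against a median of -0.05 for other numbers. Of the 36 arrays, 22 correlated best with their own number. The numbers were not taken as pairs, and whether they mark a shared batch was not tested. The block moved no other count by over 1.5 times. With genes in place of probe sets, 34 of 35 genes were called at 48 hr over the genotypes, 0 at 6 and 24 hr, 1 in Notch4-/- mice at 24 hr, and 1 and 3 for Notch3-/- and Notch4-/- over the ozone times. Top2a, whose named probe set was flat, then read 0.84 in Notch3-/- mice and 0.68 over the genotypes. Joint adjustment gave 0 over the genotypes at 24 hr, 7 between Notch4-/- and Notch3-/- in air, and 0 and 3 for the lines over the ozone times. Without Notch4-/- air mice 1 and 2 the counts were 3 at 24 hr and 36 at 48 hr in Notch4-/- mice, 3 over the genotypes at 24 hr and 0 in air. Leaving out single mice gave 0 to 27 for Notch4-/- against WT in air, 0 to 14 against Notch3-/-, 0 to 1 and 3 to 31 in Notch4-/- mice at 24 and 48 hr, 1 to 2 and 0 to 2 over the genotypes at 6 and 24 hr, and 0 to 3 and 3 to 5 for Notch3-/- and Notch4-/- over the ozone times. For Notch4-/- mice at 48 hr the low counts came without air mouse 3 (3) or 48 hr mouse 1 (4) or 3 (6), and 31 without air mouse 2. The cause of these changes was not tested. Of the single-gene results under alternatives, 3940 kept their call, 168 lost it, 106 gained it and 2 reversed.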
